A study of Mus musculus with 6 samples.

Results

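The genes described here are 9 mouse genes that are more active in the embryo and in tumours than in most adult tissue: the RNA-binding protein genes Lin28a, Lin28b, Igf2bp1, Igf2bp2 and Igf2bp3, the chromatin protein genes Hmga1 and Hmga2, and the transcription factor genes Myc and Mycn. They were taken by symbol from 20596 named rows of the deposited table, where 8 of the 9 have a row. The level of Igf2bp1 was not analysed here, and only its annotated sequence is described. They were chosen by their expression values in these same control and treated libraries, so the values are given as a description, without a p-value, and they support no statement about the set as a whole. Of the 8, 7 reached the level needed for the fit over all genes (at least 10 normalized counts in at least 3 libraries), and Igf2bp3 did not.

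RNA sequencing compared 2 groups of 3 libraries of 266.6 cells. This mouse line was grown from a pancreatic acinar tumour of an animal whose elastase promoter drove the SV40 T antigen, so every library, controls included, comes from cells transformed by that oncogene. The title and treatment label of each library call it either a control or treated with CAF_CM, medium conditioned by cancer-associated fibroblasts (CAF), the activated stromal cells of tumours. The protocol text, of exposure to that medium for up to 40 days, stands on all 6 libraries, controls included, as does growth in DMEM with serum and antibiotics, so the groups rest on the title and treatment label alone. The labels do not say what medium controls received in its place or how long they were kept, so the medium and the time in culture cannot be told apart, nor do they say that replicates were separate cultures, so each p-value rests on differences between libraries that could be technical only.

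The proteins form a well-known circuit of growth and early development. LIN28A and LIN28B bind the precursors of the let-7 microRNAs and block their maturation, and mature let-7 pairs with the mRNAs of LIN28B, HMGA2, the IGF2BP family and, in several systems, MYC, and lowers them. IGF2BP proteins bind mRNAs, many of them carrying the methyl mark m6A, and protect them from decay, HMGA proteins bend AT-rich DNA and open chromatin, and MYC drives genes of ribosome production and metabolism. In the pancreas, MYC and the IGF2BP genes are known from progenitors of the embryo and from tumours.

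The libraries held between 18622370 and 21002226 reads. As a check of the cell type, 14 of 15 acinar markers had a row, with a summed level of 70447 to 72922 normalized counts in control and 39466 to 46297 in CAF_CM libraries, carried mostly by the protease genes Ctrb1 and Cela1. Of 12 acinar markers tested, 6 fell, 5 were not called and 1 rose, while 16.1% of all genes tested fell and 18.3% rose. The falls, as log2 fold changes, were Rbpjl (-0.83), Ctrb1 (-0.93), Cela1 (-0.79), Pnliprp1 (-0.69), Cela2a (-1.34) and Cel (-0.91). Cela2a and Cel entered the fit through their control libraries, where they are higher. The rise was that of the acinar transcription factor gene Nr5a2 (0.22). Acinar markers were thus present in both groups. Of 11 fibroblast markers, 8 had a row, summing to 3515 to 3710.5 normalized counts in control and 3165 to 3649 in CAF_CM libraries, most of it Pdgfrb. Of 7 fibroblast markers tested, the collagen gene Col1a2 rose (0.48) and the matrix gene Dcn fell (-0.93), and 5, Pdgfrb and Col1a1 among them, were not called. Immune markers (3 of 8 with a row) summed to 95.4 to 107 in control and 62.7 to 99.7 in CAF_CM libraries, and endothelial markers (3 of 6) to 197 to 226 and 158 to 191. Islet markers (4 of 8) summed to 35923 to 36424 and 27104 to 29124 normalized counts, almost wholly the granins Chga and Chgb. Of 3 islet markers tested, Chga fell (-0.44), and Chgb (0.0091) and Ppy were not called. Lower levels of a gene in such bulk samples may mean fewer cells of a kind or less RNA per cell, which cannot be told apart. The part of these markers in the results was not tested.

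In CAF_CM libraries, 5 of the 7 fitted genes were higher (Lin28a, Lin28b, Igf2bp2, Hmga1 and Hmga2) and 1, Myc, was lower at an adjusted p under 0.05 in limma, a linear model over all genes, with Benjamini-Hochberg adjustment. Over all 16169 genes tested, 34.4% were called, 18.3% higher and 16.1% lower, and since the genes were picked with these values known nothing is read from the contrast with that share. Without control replicate 1, 2 or 3, 3527, 3682 and 3810 genes were called in place of 5555, and with library totals as the scaling 41.2% of the called genes were higher in place of 53.2%. The groups of libraries did not overlap for the same 6 genes, and they did not overlap for 47.7% of all genes tested. Mycn and Igf2bp3 overlapped. The log2 fold changes of the 7 genes had a median of 0.51, beside 0.0046 for all genes tested. Nothing is read from this contrast either, since it follows from how the genes were picked.

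**Figure D1:**
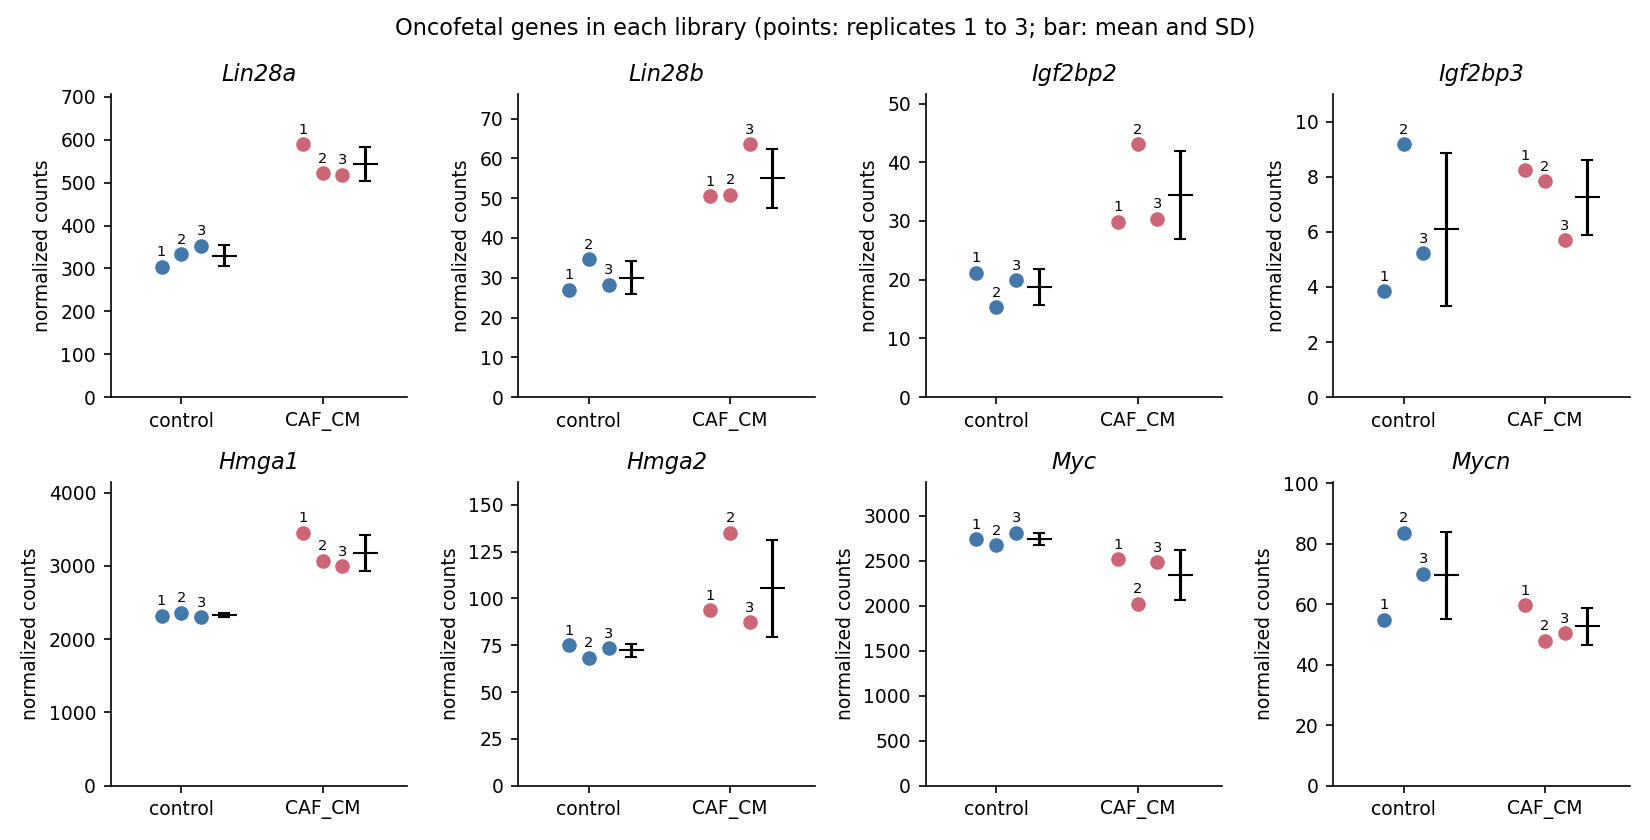
Normalized counts (y axis, from 0) of the 8 genes with a row in each control (blue) and CAF_CM (red) library, with replicate numbers, and the group mean and SD in black. The groups are apart for Lin28a, Lin28b, Igf2bp2, Hmga1, Hmga2 and Myc and overlap for Igf2bp3 and Mycn; CAF_CM replicate 2 is the highest library for Hmga2 and Igf2bp2 and the lowest for Myc.

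Lin28a, which recruits a terminal uridylyl transferase to let-7 precursors in the cytoplasm, was the more abundant of the LIN28 pair. Control libraries held 304, 334 and 353 normalized counts of Lin28a and CAF_CM libraries 590.0, 522 and 518. Every treated library lay above every control. The means were 330.2 ± 24.4 in control and 543 ± 40.4 in CAF_CM (SD, n = 3 in each group, as for all means given), 1.64-fold higher, with a log2 fold change of 0.72, a standard error (SE) of 0.08 and a 95% interval of 0.54 to 0.90. Fold changes are on the scale of log2(value + 1), which understates changes of low genes.

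Lin28b, the paralog that can hold let-7 precursors in the nucleus, was present at a low level. Its control libraries held 27.0, 34.7 and 28.3 normalized counts and its CAF_CM libraries 50.5, 50.9 and 63.6, which rest on 27 to 34 and 49 to 67 reads. The groups were again apart. The means were 30.0 ± 4.13 and 55.0 ± 7.45, a log2 fold change of 0.85, SE 0.18, with a 95% interval of 0.45 to 1.26. The ratio of Lin28a to Lin28b counts was between 9.62 and 12.5 in control and between 8.15 and 11.7 in CAF_CM libraries, ranges that overlap. Lin28a and Lin28b kept their call and direction under all 17 alternatives of processing, from 0.66 to 0.77 for Lin28a and from 0.75 to 0.96 for Lin28b.

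The let-7 family shares the seed GAGGUAG at bases 2 to 8, the stretch that pairs with target mRNAs. The mature sequences, from RefSeq (GRCm38.p6), are shown because their precursors are what LIN28 binds and because the target sites below mirror their seed, in capitals. The miR-125 microRNAs, which lie in the same transcription units as some let-7 copies and are known to target Lin28a, have another seed.

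let-7a: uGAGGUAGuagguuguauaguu
let-7b: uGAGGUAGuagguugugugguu
let-7c: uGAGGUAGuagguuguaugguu
let-7g: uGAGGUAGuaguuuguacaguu
miR-98: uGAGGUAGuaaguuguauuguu
miR-125b: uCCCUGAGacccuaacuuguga

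Levels of mature microRNAs were not measured in these libraries. What the table holds is RNA of genes annotated over their hairpins: of 12 hairpins of the let-7 family, 8 lie inside the span of 1 of 6 genes with a row. The 3 long noncoding RNAs among these genes fell in CAF_CM. Mir100hg, which spans let-7a-2, miR-100 and miR-125b-1, held 41.4, 41.8 and 57.6 normalized counts in control and 8.24, 14.7 and 8.54 in CAF_CM libraries. It was 4.25-fold lower, with a log2 fold change of -2.09, SE 0.27 (adjusted p = 2.29e-04, limma). Every treated library was below every control.

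Lncppara, also named Mirlet7bhg, spans let-7b and let-7c-2. Its 81.9, 91.8 and 82.7 normalized counts in control stood against 39.1, 34.3 and 15.2 in CAF_CM libraries, a 3.04-fold fall (log2 fold change -1.60, SE 0.29, adjusted p = 0.00151). Mir99ahg, which spans let-7c-1, miR-99a and miR-125b-2 in GENCODE but ends before them in RefSeq, went from 30.8, 43.9 and 34.5 to 26.8, 13.7 and 10.4 (log2 fold change of -1.15 with an SE of 0.31, adjusted p = 0.0153). All these noncoding RNAs are low, and Mir100hg entered the fit through its control libraries, so a fall was the change it could show. The call on Mir99ahg was lost without control replicate 2 (-1.01, adjusted p = 0.0723) or CAF_CM replicate 3 (-0.87, adjusted p = 0.0606), and its adjusted p was at most 0.0723 over all alternatives.

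The protein-coding hosts did not share a direction. Wdr82, over let-7g, rose from 2433 ± 24.0 to 3090.4 ± 241 normalized counts (log2 fold change 0.34, adjusted p = 0.00120). Huwe1, a ubiquitin ligase gene over let-7f-2 and miR-98, had 8396 ± 282 in control and 9958 ± 1973 in CAF_CM libraries, with 7680.1 in replicate 1 (log2 fold change 0.23, adjusted p = 0.149). Without CAF_CM replicate 1 it was called higher, at 0.40, as it was with the replicate block (0.23), and with the length and GC trends removed it was 0.034 (adjusted p = 0.663). Spaca6, over let-7e, was looked at after its values were seen and fell from 273, 298 and 311 to 190.5, 223 and 257 normalized counts (log2 fold change -0.40, adjusted p = 0.0170). That call was lost without control replicate 2 or 3 (adjusted p = 0.0637 and 0.0759, the highest over all alternatives). Of the 5 genes of the let-7 host list that could be tested, 3 fell and 1 rose, while 16.1% of all genes tested fell and 18.3% rose. Mir100hg, which entered the fit through its control libraries, is among the 3. Nothing particular to this list was tested. Counting by strand is not stated, so reads of a host and of genes that overlap it cannot be told apart.

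**Figure D2:**
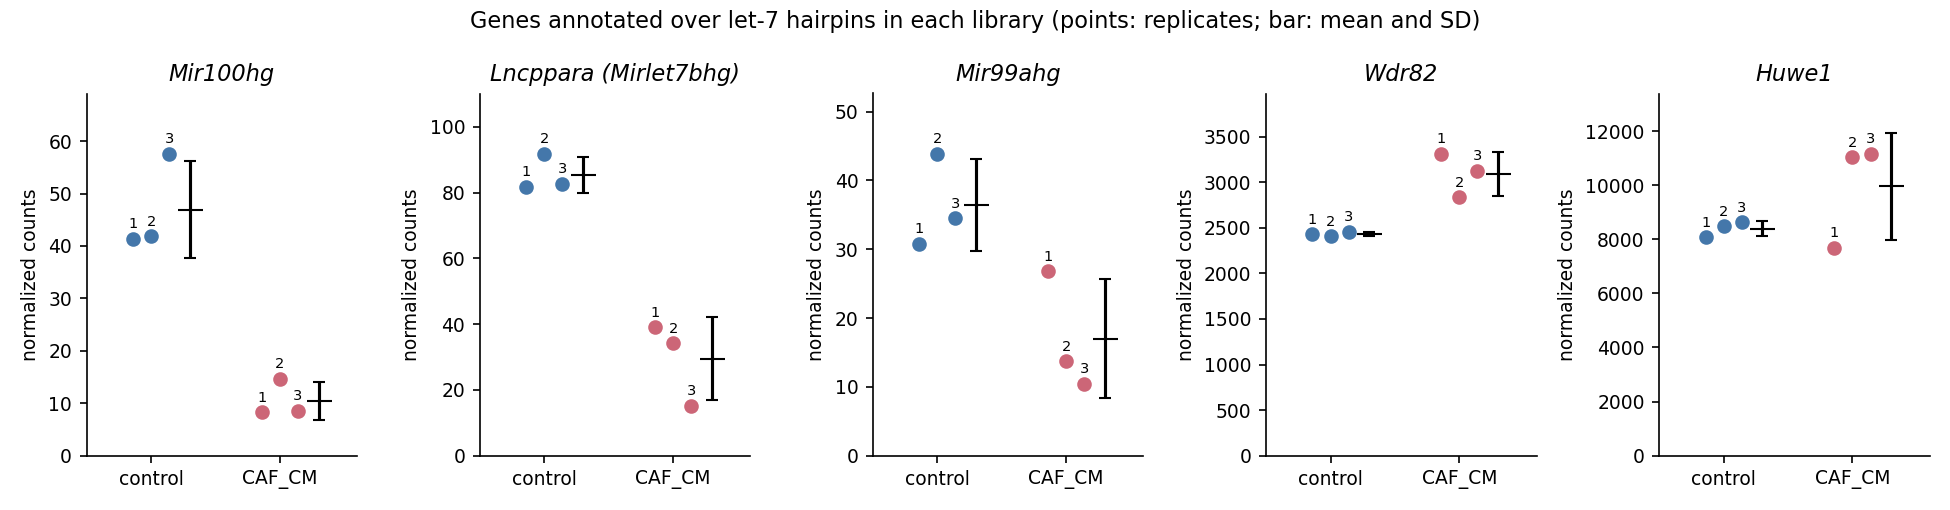
Normalized counts (y axis, from 0) of 5 genes annotated over let-7 hairpins in each control (blue) and CAF_CM (red) library, with replicate numbers and the group mean and SD. Mir100hg, Lncppara and Mir99ahg are lower in every CAF_CM library than in any control, Wdr82 is higher, and Huwe1 overlaps because CAF_CM replicate 1 is the lowest of all.

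The reverse complement of the let-7 seed, CTACCTC, was searched on the sense strand of the 3′ untranslated region (UTR) of the longest coding GENCODE M21 transcript. It was found in 7 of the 9 genes, in 4 places in Lin28b, Igf2bp1 and Hmga2, in 2 in Lin28a and in 1 in Igf2bp2, Igf2bp3 and Hmga1, and in none of Myc or Mycn. Over 13976 genes of the table with such a UTR, 10.2% held it. Because long UTRs hold more matches by length alone, each gene was set beside UTRs within 25% of its length. The gene's own UTR was counted among them, which weighs most where the share is small. At least as many matches as in Hmga2 were held by 0.0933% of 2144 such UTRs. The shares were 0.305% of 1310 for Lin28b, 2.29% of 2229 for Lin28a and 8.40% of 2464 for Hmga1. The single matches of Igf2bp2 and Igf2bp3 were as common as in UTRs of all lengths, with at least 1 in 11.4% of 2610 and 12.9% of 2530 UTRs of like length. The UTRs of Myc and Mycn are short, at 442 and 913 bases, and 3.94% and 7.10% of UTRs of like length hold a match. A match is a stretch of letters and not a shown binding site.

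The sites are printed for the genes with a row that were higher in CAF_CM. A match beside a rise is thus a result of that choice, and a link between them was not tested. The match of Igf2bp3, whose groups overlapped, is not printed. Each site is shown as 22 bases that end 1 base after the match, on the strand of the mRNA, with the match in capitals. Coordinates are of GRCm38, from the annotation and not from the table, whose mouse build is not given in the sources used here.

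Lin28a, chr4:134005189-134005210: cacagcctgttgaaCTACCTCa
Lin28a, chr4:134004551-134004572: agatcgccacaaacCTACCTCa
Lin28b, chr10:45381022-45381043: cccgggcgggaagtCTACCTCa
Igf2bp2, chr16:22059473-22059494: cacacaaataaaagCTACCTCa
Hmga1, chr17:27563278-27563299: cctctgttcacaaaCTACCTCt
Hmga2, chr10:120364224-120364245: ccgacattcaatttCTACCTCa
Lin28a, miR-125 match, chr4:134005301-134005322: ggtacatgagcaatCTCAGGGa

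All of these lie on the minus strand apart from that of Hmga1, and all are in the 3′ UTR. In Lin28b and Hmga2 the match shown is the one nearest the stop codon, starting at bases 36 and 58 of the UTR. An A follows the match, which makes the longer 8-base type of site, in each sequence shown except that of Hmga1. Of all 12 let-7 matches in these genes only 5 are of that type: the further 3 in Lin28b and 3 in Hmga2, not printed, are followed by another base. The miR-125 match CTCAGGG occurs once in Lin28a, Lin28b and Igf2bp3, and in 15.7% of all UTRs.

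**Figure D3:**
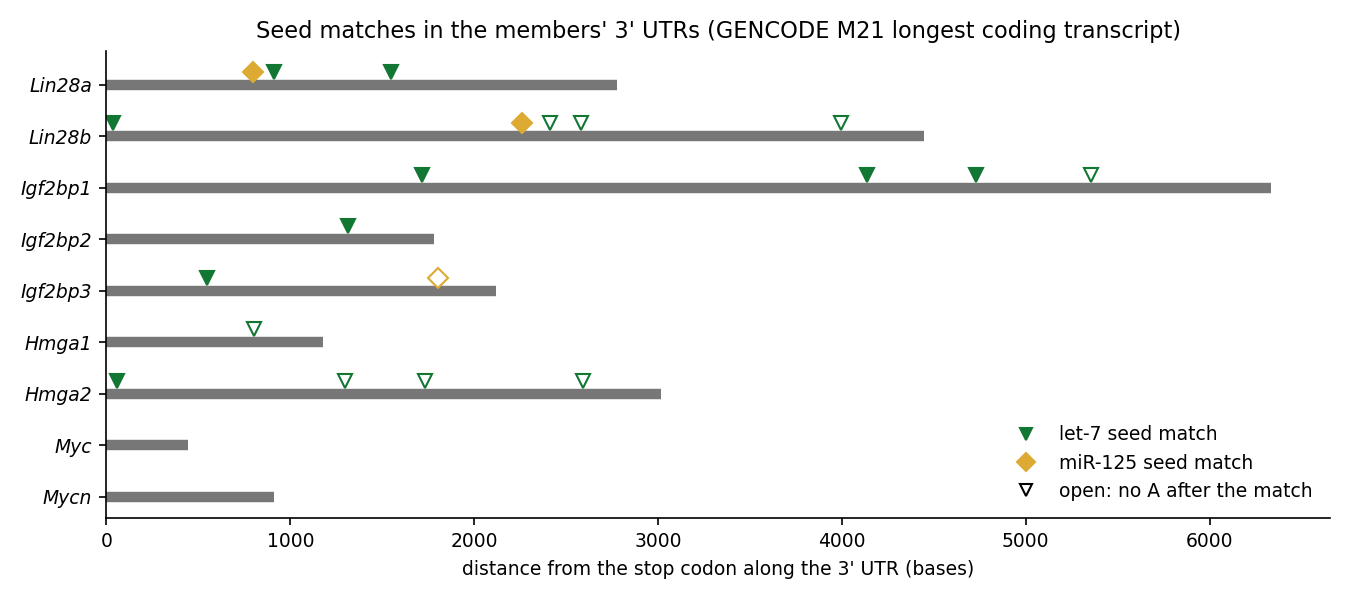
Map to scale of the 3′ UTR of each gene (x axis, bases from the stop codon), with let-7 seed matches as triangles and miR-125 seed matches as diamonds, filled where an A follows. The 7 LIN28, IGF2BP and HMGA genes hold between 1 and 4 let-7 matches, and the shorter UTRs of Myc and Mycn hold none.

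Of the genes tested, 12471 had a 3′ UTR to search and 3698 did not and were left out. The median log2 fold change was 0.0108 for 11167 genes without a match, 0.0594 for 1136 with 1 match, 0.0750 for 147 with 2 and 0.27 for 21 with 3 or more, Lin28b and Hmga2 among them. The share called higher was 20.1%, 27.2%, 28.6% and 57.1%, and 28.6% of the last class was called lower. The median UTR length rose from 1053 to 2285, 3525 and 4453 bases over the same classes. When the genes were put into 4 classes of equal size by UTR length, the median in the class of longest UTRs was 0.13 for 691 genes with a match and 0.14 for 2426 without, and 37.2% and 37.9% were called higher. In the next longest class, it was 0.0445 for 351 genes with a match and 0.0614 for 2766 without. In the class below, it was -0.0599 for 189 genes with a match and -0.0133 for 2930 without. In the class of shortest UTRs, it was -0.0982 for 73 genes with a match and -0.089 for 3045 without, and 2.74% and 7.32% were called higher. The median with a match was thus the lower in every class. Genes with 3 or more matches were too few to be set apart in these classes and were not compared at like length, and none of these differences was tested. The fold changes of Lin28b and Hmga2 with the trends over transcript length and GC content removed were 0.77 and 0.47.

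Igf2bp2, the family member that adult tissues also express, was low. Its control libraries held 21.2, 15.3 and 19.9 normalized counts and its CAF_CM libraries 29.9, 43.1 and 30.4. The groups were apart, with CAF_CM replicate 2 the highest. The means were 18.8 ± 3.09 and 34.4 ± 7.50, a log2 fold change of 0.83, SE 0.23, with an interval of 0.32 to 1.34, on 15 to 22 reads in control and 29 to 44 in CAF_CM libraries. The threshold was missed without control replicate 2 (0.70), without CAF_CM replicate 2 (0.67) and in DESeq2 (0.86).

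Igf2bp3, the paralog most used as a tumour marker in pancreas, held 3.85, 9.18 and 5.23 normalized counts in control and 8.24, 7.83 and 5.69 in CAF_CM libraries. These are 4 to 9 and 6 to 8 reads. The groups overlapped, and with no filter on low values its log2 fold change was 0.28 and not called.

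Hmga1, a DNA-binding protein gene of proliferating cells, was abundant. Its control libraries held 2319, 2363 and 2301 normalized counts and its CAF_CM libraries 3454, 3068 and 2999. The control libraries lay within a narrow band, and all treated libraries were above it. The means were 2328 ± 31.9 and 3174 ± 245, 1.36-fold higher, with a log2 fold change of 0.44, SE 0.06, and an interval of 0.32 to 0.57. The value ran from 0.38 to 0.50 over the alternatives.

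The count of Hmga1 is not independent of Hmga1b, a near-identical copy. Of all 25-base words in the longest Hmga1 transcript, 74.6% also occur in Hmga1b, and 93.8% of those of Hmga1b occur in Hmga1. The ratio of Hmga1b to Hmga1 counts was 0.604 to 0.625 in control and 0.625 to 0.635 in CAF_CM libraries, so both rows moved nearly in step, and how the reads were shared between them is uncertain. Their sum was 3694 to 3791 normalized counts in control and 4874 to 5648 in CAF_CM libraries, also without overlap.

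Hmga2, the best known let-7 target, was far lower than Hmga1. Control libraries held 75.1, 68.4 and 73.3 normalized counts and CAF_CM libraries 93.7, 135 and 87.3. All treated libraries lay above the controls, and CAF_CM replicate 2 stood above the other two. The means were 72.3 ± 3.50 and 105 ± 26.0, a log2 fold change of 0.51, SE 0.17, with an interval of 0.15 to 0.88. Without CAF_CM replicate 2 the value was 0.32 and missed the threshold, as it did without control replicate 1, 2 or 3 (0.54, 0.47 and 0.52) and with library totals as the only scaling (0.47).

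Myc was the most abundant of the genes in control libraries and moved little. It held 2741, 2674 and 2811 normalized counts in control and 2516, 2023 and 2485 in CAF_CM libraries. All treated libraries lay below the controls, replicate 2 the furthest. The means were 2742 ± 68.8 and 2342 ± 276, a log2 fold change of -0.23, SE 0.08, with an interval of -0.40 to -0.069. Without CAF_CM replicate 2 the value was -0.13, still past the threshold. It was missed without control replicate 1, 2 or 3 (-0.23, -0.25 and -0.22) and with the length and GC trends removed (-0.15).

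Mycn, the MYC paralog of neural and embryonic tissues, held 54.9, 83.7 and 70.1 normalized counts in control and 59.7, 48.0 and 50.3 in CAF_CM libraries. The groups overlapped through control replicate 1. Its log2 fold change was -0.38, SE 0.18, with an interval of -0.78 to 0.0141, and it missed the threshold under every alternative run. The ratio of Myc to Mycn counts was 31.96 to 49.9 in control and 42.1 to 49.4 in CAF_CM libraries.

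**Figure D4:**
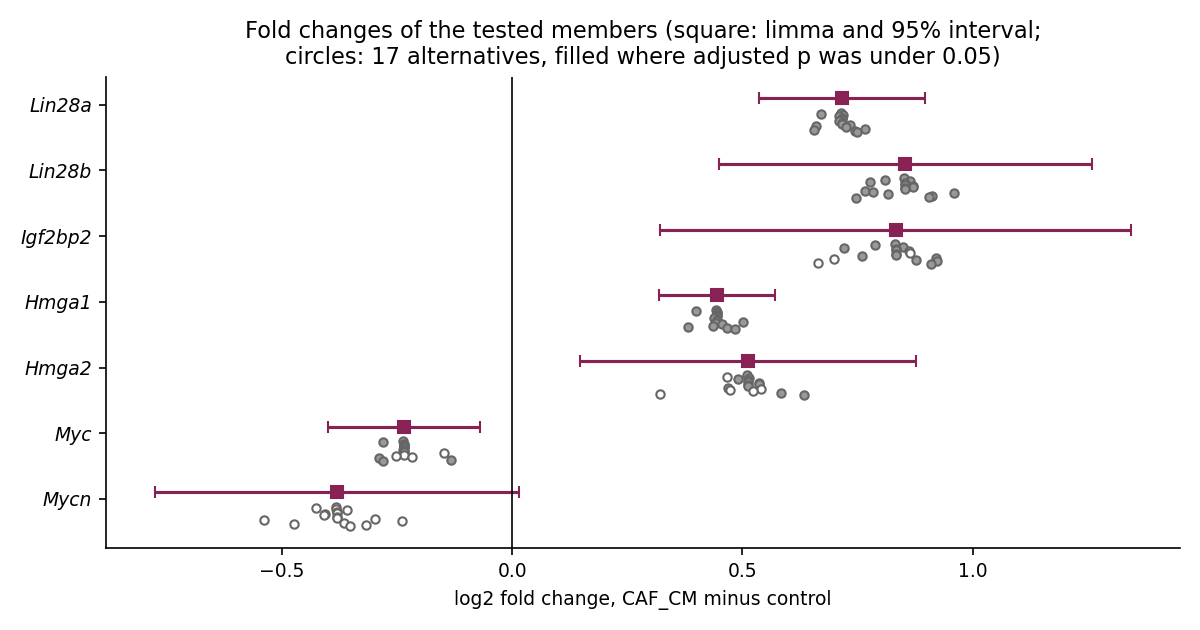
Log2 fold change (x axis, CAF_CM minus control) of the 7 fitted genes: the square is the limma value with its 95% interval, and circles are 17 alternatives of processing, filled where the adjusted p was under 0.05. No circle crosses 0, all circles of Lin28a, Lin28b and Hmga1 are filled, and all of Mycn are open.

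Per kilobase of the longest coding GENCODE M21 transcript of each gene, the levels in control libraries fell into tiers. Which transcript the cells used was not measured, and the order depends on that length. Before division by length, Mycn and Hmga2 overlapped in control libraries and Myc was above Hmga1. Myc, at 1144 to 1202.5 normalized counts per kb, and Hmga1, at 1150 to 1181, overlapped at the top. Lin28a followed at 86.8 to 101. Mycn, at 20.5 to 31.3, and Hmga2, at 17.9 to 19.7, came next without overlap, and Lin28b (4.99 to 6.42) and Igf2bp2 (3.92 to 5.43) overlapped below them, above Igf2bp3 at 0.887 to 2.11. In CAF_CM libraries the order changed at the top and in the middle: Hmga1, at 1499 to 1726 per kb, was above Myc, at 865 to 1076, and Hmga2, at 22.9 to 35.5, was above Mycn, at 17.9 to 22.3.

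The spread between libraries, as the coefficient of variation (SD as a percent of the mean), had a median over the 7 fitted genes of 7.38% in control and 11.8% in CAF_CM libraries. It was 1.37% and 7.73% for Hmga1, 2.51% and 11.8% for Myc and 4.85% and 24.6% for Hmga2, whereas for Lin28a it was 7.38% and 7.43% and for Mycn 20.7% and 11.8%. Genes within 2-fold of the mean level of Hmga2 had a median of 9.03% in control and 12.3% in CAF_CM libraries, and those near Myc had 2.40% and 5.45%.

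The genes whose profile over the 6 libraries lay closest to each, by the root mean square difference of log2 values set to 0 at the control mean, were Ccdc117 and Gal for Lin28a (0.0689 and 0.0697), Axin2 and Galnt13 for Lin28b (0.116 and 0.118) and Pcdh1 and Unc5c for Igf2bp2 (0.0963 and 0.120). They were Ubqln2 and the copy Hmga1b for Hmga1 (0.0316 and 0.0345), Lzts1 and Tspan18 for Hmga2 (0.0652 and 0.0736), Mcrip2 and Tapt1 for Myc (0.0225 and 0.0262) and Rpl36al and Zmat1 for Mycn (0.115 for both). They were taken from 11080 genes with a mean of at least 50 normalized counts.

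The lists of related genes that follow are read beside all genes tested, of which 18.3% rose and 16.1% fell. Their share of rises ran from 28.6% in the oncofetal and IGF list to 57.9% in the microRNA list, and nothing particular to a list was tested. Of 19 genes tested that make and use microRNAs, 11 rose and 3 fell, 57.9% and 15.8%, and the list median was 0.24. Ago2, the slicing Argonaute that carries let-7, rose from 6096 ± 235 to 10344 ± 1751 normalized counts, a log2 fold change of 0.75 with an SE of 0.10 (adjusted p = 2.81e-04). Trim25, a ubiquitin ligase that works with LIN28A in let-7 turnover, rose by 0.38 and Tnrc6b, a silencing partner of Argonautes, by 0.56 log2 units. Tut4, the terminal uridylyl transferase that LIN28A recruits to let-7 precursors, rose from 2138 ± 84.8 to 2807 ± 261 normalized counts (0.39, adjusted p = 0.00128). The genes that fell were Dgcr8 (-0.36), which helps to cut primary microRNA transcripts, Tarbp2 (-0.37) and Ago4 (-0.38). The count of rises was 7 after the length and GC correction and 7 without control replicate 1.

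Among 23 other let-7 target genes tested, 9 rose and 2 fell, with a median of 0.13. Fas, among the rises at 0.79, entered the fit through its CAF_CM libraries, the group where it is high. Nras, a small GTPase gene of growth signalling, rose from 2105 ± 14.4 to 2797 ± 66.5 normalized counts (0.41, SE 0.05, adjusted p = 1.07e-04). Arid3a, a chromatin-binding factor gene, rose by 0.64, and Nr6a1 (-0.40) and Dna2 (-0.22) fell. The count of rises was 4 with library totals and in DESeq2 and 3 without control replicate 1 or 2, and 1 gene fell without control replicate 2.

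The list of the m6A machinery, whose mark IGF2BP proteins read, also holds the RNA-binding protein genes Elavl1, Pabpc1 and Matr3. This list gave 11 rises, Elavl1 and Pabpc1 among them, and 0 falls in limma in 21 tested (median 0.21). At an unadjusted p under 0.05, 0 fell in limma, edgeR or DESeq2, and 1 fell in limma after adjustment without CAF_CM replicate 1 or 3. Elavl1, an mRNA-stabilising partner of IGF2BP proteins, rose by 0.45, and the m6A readers Ythdf3 and Ythdf1 by 0.32 and 0.31 log2 units. The methyltransferase gene Mettl3 had mean levels of 442 (control) and 422 (CAF_CM) normalized counts (adjusted p = 0.557). Other oncofetal and IGF axis genes gave 6 rises and 2 falls in 21 tested, 28.6% and 9.52%, with a median of 0.04 (34.4% of all genes tested were called). The imprinted genes Peg10 (0.65) and Grb10 (0.56) rose and Igf1 (-0.48) fell. Igf2, the classical IGF2BP target, had 309 ± 33.8 and 321 ± 90.8 (adjusted p = 0.932) and H19 5265 ± 223 and 4870.5 ± 914 normalized counts (adjusted p = 0.370). Without control replicate 1 only 3 of these genes rose, and without CAF_CM replicate 2, 4 fell.

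Of 11 other HMG genes tested, 4 rose and 1, Hmg20b, fell (median 0.14). The rises were those of the copy Hmga1b (0.49), Hmgxb3 (0.29), Hmgxb4 (0.23) and Hmgb3 (0.19). That of Hmga1b is not independent of the rise of Hmga1. Hmgb1, an abundant chromatin protein gene, had a value of 0.15 (adjusted p = 0.0691). After the length and GC correction 7 rose and 0 fell. Without control replicate 1 only 2 rose, and the fall of Hmg20b was lost without control replicate 1, 2 or 3 or CAF_CM replicate 3, while 3 fell without CAF_CM replicate 1.

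MYC's partners, antagonists and regulators of its turnover gave 12 rises and 2 falls in 33 tested (median 0.16). Max, the partner that MYC and MYCN need to bind DNA, rose from 1006 ± 28.8 to 1263 ± 86.3 normalized counts (0.33, adjusted p = 0.00199). Aurka, a mitotic kinase that shields MYCN from degradation, rose by 0.37 and Fubp1, which binds upstream of MYC, by 0.39. The paralog Mycl rose from 188 ± 6.58 to 268 ± 48.9 normalized counts (0.49, adjusted p = 0.00917), and Fbxw7, the ligase that degrades MYC, by 0.32. Mlxipl, a carbohydrate-sensing factor of the extended network, fell by 0.72 and the antagonist Mxd3 by 0.37. Without control replicate 1, 1 of these falls was left.

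MYC target genes gave 21 rises and 3 falls in 53 tested (median 0.13), in the libraries where Myc itself had a value of -0.23. Bcat1, an enzyme of branched-chain amino acid metabolism, rose from 719 ± 24.9 to 1421 ± 224 normalized counts (0.97, SE 0.10, adjusted p = 5.85e-05). Ddx21, a nucleolar helicase gene, rose by 0.46 and the purine synthesis gene Ppat by 0.39, while Nop56 (-0.26), Ppan (-0.34) and Gnl3 (-0.21), all of ribosome production, fell. The count of rises was 12, with 5 falls, under library totals, and it was 8, 10 and 9 without control replicate 1, 2 or 3 and 10 without CAF_CM replicate 3. The falls numbered 6 without CAF_CM replicate 1.

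Pluripotency and germ cell genes, among which LIN28A is counted in stem cells, had few rows: 4 of 15 were in the table. Of 3 tested, Esrrb rose from 5.08 ± 1.21 to 13.8 ± 2.28 and Nanos3 fell from 15.5 ± 3.76 to 7.82 ± 2.29 normalized counts, each of which entered the fit through the group where it is high, and Klf4 was not called (225 and 209.6 normalized counts, adjusted p = 0.559). The call on Nanos3 was lost without each of control replicates 1, 2 and 3 and CAF_CM replicates 1 and 2.

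**Figure D5:**
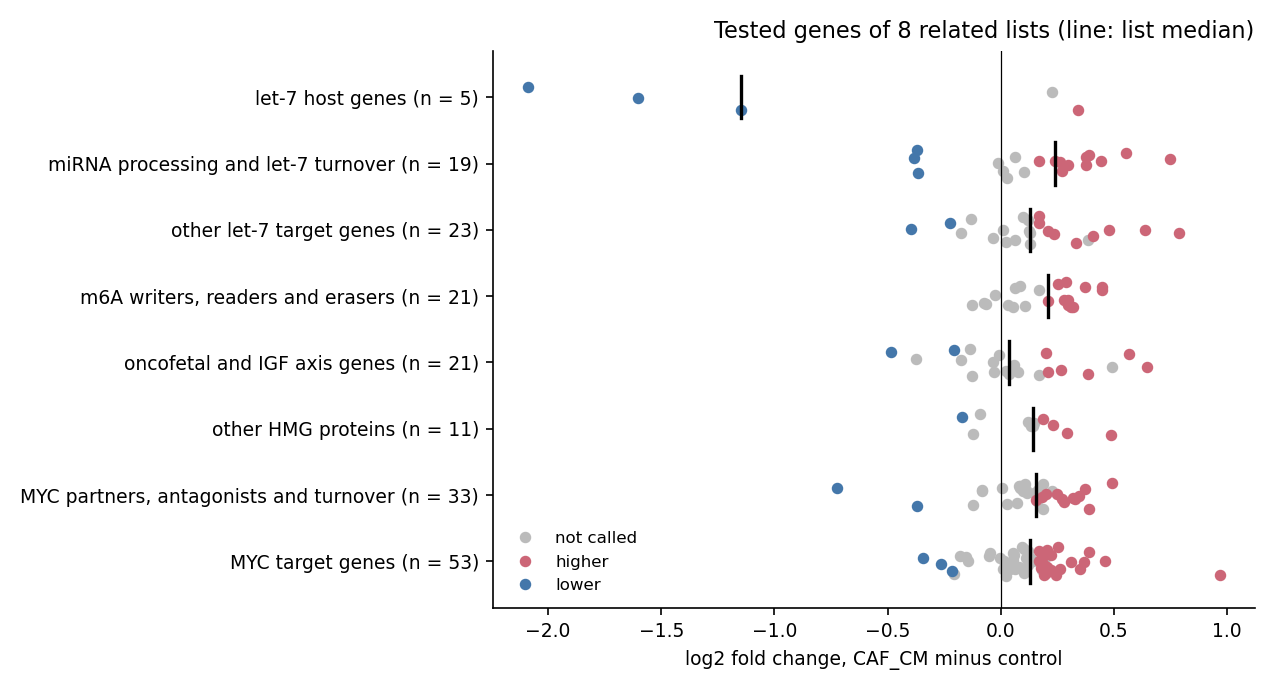
Log2 fold change (x axis, CAF_CM minus control) of each tested gene of 8 lists around the LIN28, IGF2BP, HMGA and MYC genes, coloured by its call in limma, with the list median as a black line. The 3 noncoding let-7 hosts lie at -1.15 and below, and the medians of the other lists lie between 0.0374 and 0.24.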

How the data were processed

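Libraries of 266.6 cell RNA were made with a TruSeq RNA kit, per the labels' protocols. FastQC, DESeq2 and hg19, a human build, appear in the submitters' processing notes, although the symbols are those of mouse; the aligner, the counter and the mouse build are not given in the sources used here. The deposited values are treated as a signal: the authors' read counts after division by 1 factor per library. In each library 100% of values were whole multiples, within 0.001 reads, of the worth of 1 read (0.949 to 1.05), which gave the reads back. Of 20764 rows, 168 without a symbol (0.153% to 0.261% of reads) were left out.

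The test was limma 3.58.1, in R 4.3.3, with the trend option and Benjamini-Hochberg adjustment, run on log2(value + 1) of the 16169 genes that reached 10 normalized counts in 3 or more libraries. On simulated counts for this comparison, over 16318 genes tested, it called 47 of 50 genes raised and 44 of 49 lowered by 1 log2 unit. It called 30 of 49 and 29 of 50 at 0.5, and 1 of 16120 unchanged genes. The simulation gave all genes of a group 1 common spread beyond counting error, 2.20% in control and 8.23% in CAF_CM. It held no difference in spread between genes and no length or GC trend, so its rates need not hold for these data. edgeR 4.0.16 on the recovered reads called 5570 genes, beside 5555 in limma, 5466 of them shared. DESeq2 1.42.0, other scalings, pseudocounts, filters, weights, a replicate block, a length and GC correction and each library left out were the other alternatives.

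The genes and 14 related lists were chosen with earlier results of these data known. Genes named are, per list, the 3 called genes of lowest adjusted p, and for each oncofetal gene its 2 nearest profiles; further names were chosen after their values were seen. For 1 list, 1 gene that this rule names is not reported here. Lists were matched by symbol, or by RefSeq synonym for 1 gene. The spread within a group with 3 libraries limits the precision of each value, and read counts carry counting error besides.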

Additional observations from a re-analysis of the deposited data

How the results depend on the processing

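The log2 fold changes of the 7 fitted oncofetal genes kept their direction and moved by less than 1 SD between replicates in all 119 recomputed values. Leaving out 1 library always moves a group mean by less than that group's SD, so for those values this limit tells nothing. The calls on Igf2bp2, Hmga2 and Myc were lost under some alternatives, as given above. Leaving out 1 library each gave 0.66 to 0.77 for Lin28a, 0.75 to 0.96 for Lin28b, 0.67 to 0.92 for Igf2bp2, 0.38 to 0.48 for Hmga1, 0.32 to 0.63 for Hmga2, -0.29 to -0.13 for Myc and -0.54 to -0.24 for Mycn, and the median coefficient of variation ran from 3.31% to 6.68% in control and 9.16% to 15.4% in CAF_CM libraries. All genes gave 1868 to 3509 higher and 1659 to 2943 lower calls. By list the higher and lower calls ran from 7 to 11 and 2 to 3 (microRNA processing), 3 to 8 and 1 to 3 (let-7 targets), 1 to 2 and 2 to 3 (let-7 hosts), 10 to 12 and 0 to 1 (m6A), 3 to 8 and 2 to 4 (oncofetal), 2 to 6 and 0 to 3 (HMG), 8 to 16 and 1 to 2 (MYC partners), 8 to 30 and 2 to 6 (MYC targets) and 1 to 1 and 0 to 1 (pluripotency). With library totals, 41.2% of called genes were higher, beside 53.2%, 4 let-7 targets rose, 2 HMG genes fell, and 12 MYC targets rose and 5 fell. DESeq2 gave 4 rises of let-7 targets and 0 pluripotency calls, edgeR 2 HMG falls, and the length and GC correction 7 microRNA processing rises, 7 HMG rises with 0 falls, 1 m6A fall and 0 pluripotency falls. Pluripotency calls were 0 and 0 with the 1 CPM filter, and falls were 0 with no filter and with separate group weights. The cause of these shifts was not tested.

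Replicate numbers are shared by the groups. The deviations of same-numbered libraries correlated at 0.0703, 0.0291 and 0.0305, and those of the other pairs at -0.0457 to 0.0174. The labels do not say whether the numbers pair the samples, and such weak values from 3 libraries per group cannot decide it. With the replicate block, 5921 genes were called, beside 5555, the let-7 hosts gave 2 rises and the MYC targets 5 falls. Over 186 related genes, 2892 of 3157 recomputed values kept call and direction, 188 lost a call, 77 gained one and 0 called values changed sign. Depth limits Igf2bp3, Igf2bp2, Lin28b and the noncoding let-7 hosts, which rest on the fewest reads.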
